A study of Mus musculus with 16 samples.

Results

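The loss of LMAN1 was examined in mouse tracheal epithelial cells (MTECs) at rest, by setting the 4 naive KO libraries against the 4 naive WT libraries. These 8 libraries were chosen by their labels from the 16 of the series, whose other 8 were exposed to house dust mite (HDM) extract. Differences are KO minus WT with sex in the model, over 15533 genes that passed a filter on low counts. MTECs are primary cultures in which tracheal cells are grown on a porous insert with air above and medium below, so that basal cells give rise to secretory and ciliated cells.

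The naive groups were male WT, male KO, female WT and female KO, with 2 biological replicates each and no agent added. KO mice were a line without LMAN1 on the C57BL/6J background, with WT littermates from heterozygous parents, and the ages of the donors of the cultures were not given in the sources used here. Tracheas of several mice were pooled for a culture, and the inserts were coated with basement membrane made by 3T3 cells, a mouse fibroblast line. A library is therefore a pool of animals and not an individual, and in bulk RNA fewer cells of a type cannot be told apart from less RNA per cell.

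LMAN1, also called ERGIC-53, is a lectin that cycles between the endoplasmic reticulum (ER) and the Golgi. It binds sugar chains on newly made glycoproteins and loads them into COPII vesicles, and with its soluble partner MCFD2 it carries the clotting factors V and VIII. It has also been reported as a receptor for house dust mite on dendritic cells, and as present on the surface of airway epithelial cells.

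Library totals ranged from 27035993 to 43442188 counts, and replicate precision was limited by the 2 pools in each group. Xist was at 95.2 to 127 CPM (counts scaled by library total and TMM factor) in the female libraries and 1.14 to 3.66 in the male ones, and Ddx3y was at 44.0 to 59.7 CPM in male and 0.281 to 1.03 in female libraries, so every label of sex was matched. Krt5, a basal cell keratin, was high in all 8 libraries (3357 to 4956 CPM), and Foxj1, which drives ciliated cell differentiation, was at 47.4 to 97.9 CPM. Club cell genes were mixed, since Cyp2f2 reached 12690 to 18520 CPM while Scgb1a1, the gene most used to define club cells, was at only 0.632 to 3.78 CPM. The goblet cell mucin gene Muc5ac was at 2.13 to 6.12 CPM.

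Lman1 itself checks the genotype labels. The gene lies on the minus strand of chromosome 18 (65980738 to 66022580 in GRCm38) and codes for protein. WT libraries held 109 and 138 CPM in the male replicates and 125 and 123 CPM in the female replicates, a mean of 123.9 ± 11.9 (SD, n = 4). Female KO libraries held 12.9 CPM in both replicates. Male KO replicate 1 held 14.1 CPM, and the library labelled male KO replicate 2 held 64.0 CPM. All 4 KO libraries lay below all 4 WT libraries, but 3 of them kept 10.4% to 11.4% of the WT mean and the library labelled male KO replicate 2 kept 51.7%. Its level was near that of the KO libraries of the HDM arm, which lay between 65.0 and 78.1 CPM when all 16 libraries were scaled together. The cause was not tested, and the main counts below are given with and without this library.

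**Figure D1:**
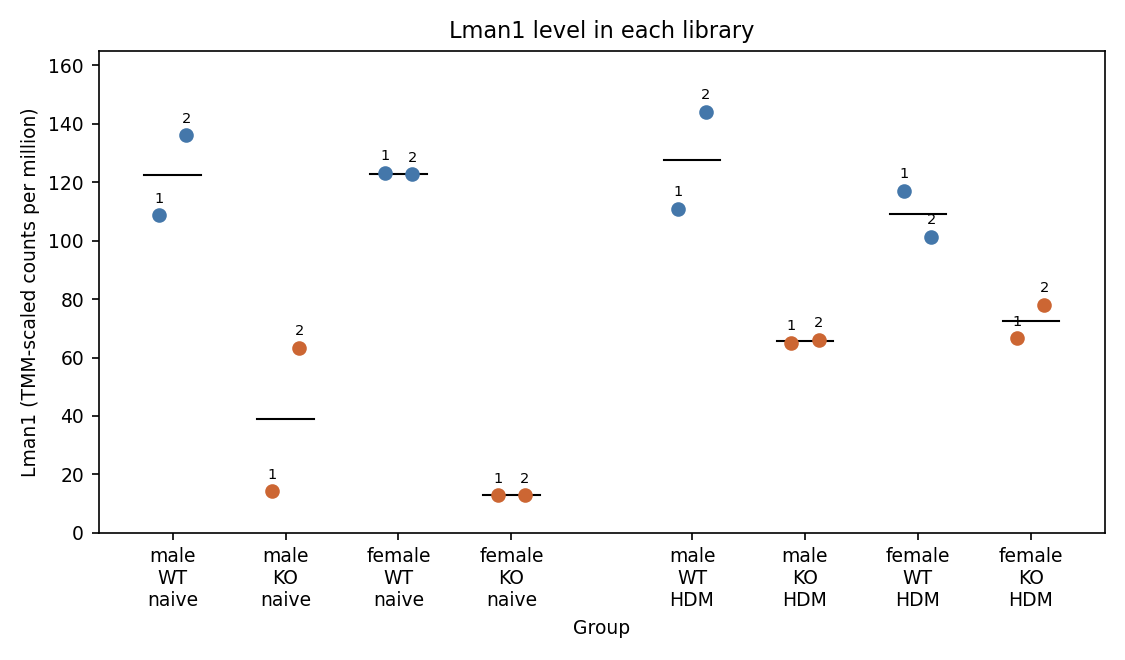
Lman1 in TMM-scaled CPM (vertical axis) in each of the 8 groups, 2 libraries per group numbered by replicate, with a bar at the group mean, WT in blue and KO in orange. Naive KO libraries sit at 12.8 to 14.2 except male KO replicate 2 at 63.4, and the 4 KO libraries with HDM sit at 65.0 to 78.1.

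With 8 libraries the log2 fold change of Lman1 was -2.43 (95% interval -3.51 to -1.34, SE 0.48), and it ranked 3 by p among all genes tested, but it was not called (adjusted p = 0.998, edgeR quasi-likelihood test with Benjamini-Hochberg adjustment). The exact permutation test over the 4 KO and 4 WT libraries gave p = 0.0286, two-sided, which is the smallest value for 8 libraries exchanged freely. Exchanged only within sex, the exact permutation p was 0.0556, and within same-numbered pairs it was 0.125, each again the smallest value possible. Without the library labelled male KO replicate 2 the log2 fold change was -3.21 (SE 0.09) and Lman1 was called (adjusted p = 6.19e-06, edgeR). Within females it was -3.26 (SE 0.59), and within males, where the doubted library is 1 of 2, it was -1.65 (SE 0.55). Both sexes share 1 estimate of the spread in this fit, so the doubted library enters the female SE too. With only the 4 female libraries, a setting chosen after the data were seen, it was -3.26 (SE 0.07).

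No gene was called in KO against WT at an adjusted p under 0.05, which is 0.0% of the 15533 genes tested by edgeR. At an unadjusted p under 0.05 there were 481 genes (3.1%), of which 174 (1.12%) were higher and 307 (1.98%) lower in KO. With no difference in any gene, a share of 0.05 would be expected under this threshold. The 3.1% is below that share, and the 5.65% with the replicate block is near it. With the replicate number as a block the count was 877, 344 higher and 533 lower, and without the library labelled male KO replicate 2 it was 668, 228 higher and 440 lower. limma voom called 0 genes too, with 486 at an unadjusted p under 0.05. DESeq2 called 4 genes, namely Heg1, Fam83a and Lman1, which were lower, and Capn11, which was higher. Without the library labelled male KO replicate 2, edgeR called 1 gene of 15926 (0.00628%), Lman1, and DESeq2 called 9. These were Lman1, Capn11, Fam83a, Zbtb20, Timp3, Akap9, Krt13, Scgb3a2 and Xlr3b, the last 4 of which fall outside the rule for named genes and were singled out after their values were seen.

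Intervals were read gene by gene, without adjustment for the number of genes and from the fit without a replicate block. They do not show which changes would have been called, since Lman1 at -2.43 was not called in this fit. The 95% interval of the log2 fold change lay within a 2-fold change in either direction (-1 to 1) for 13594 genes, or 87.5%, and for 99.8% of the 3940 genes with a mean log2 CPM above 6. The median SE was 0.10 and the median fold change over all genes was 0.00 on the log2 scale. For 1007 of the 2446 genes with a mean log2 CPM of 0 or below, the interval lay within these limits. For most weakly expressed genes a 2-fold change was therefore not excluded at this depth and replication.

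**Figure D2:**
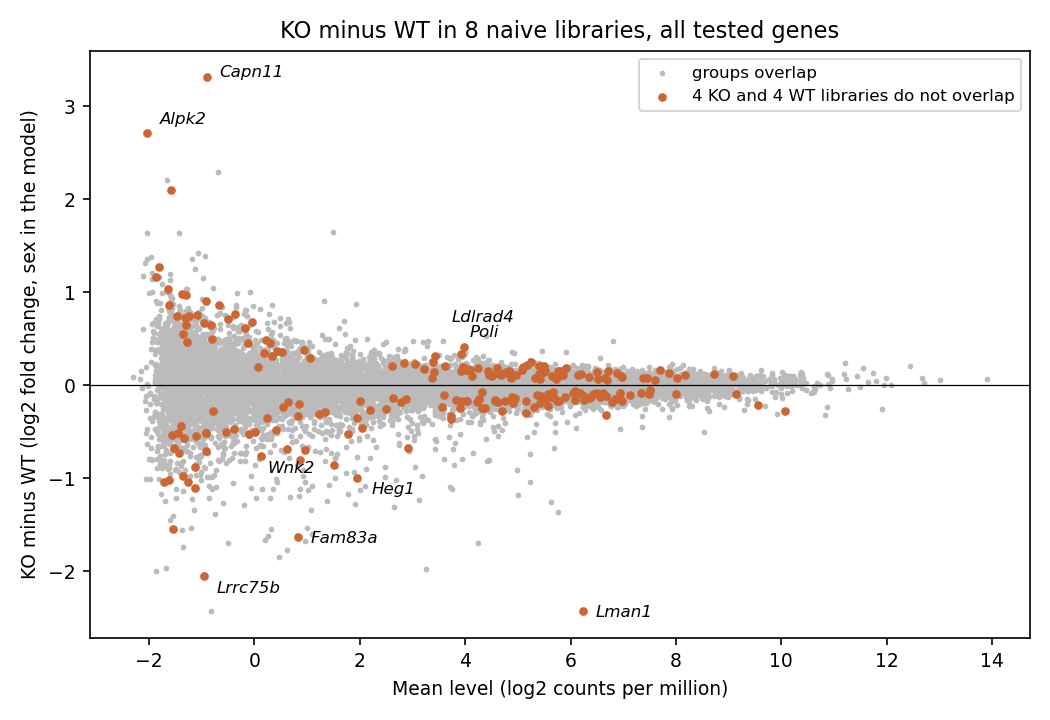
KO minus WT log2 fold change (vertical axis) against mean level in log2 CPM (horizontal axis) for the 15533 genes tested in 8 naive libraries, with genes whose 4 KO and 4 WT libraries do not overlap in orange. Lman1, at -2.43, is the lowest of the 14 genes that averaged 2 or more in log2 CPM and differed by 1 or more, and the only one of them whose groups do not overlap.

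Groups that do not overlap at all were also counted. The 4 KO libraries were all above the 4 WT libraries for 108 genes (0.695%) and all below for 114 (0.734%), 222 in all (1.43%). With the library labelled male KO replicate 2 left out, the 3 remaining KO libraries were all above WT for 339 genes (2.18%) and all below for 390 (2.51%). Fewer libraries are more often separate by arrangement alone, so shares with and without that library cannot be compared. Under free exchange of labels, 4 libraries would be separate from 4 with a probability of 0.0286, and 1.43% is below that. A log2 fold change of 1 or more in size was reached by 107 genes, but by only 14 of the 11069 genes that averaged 2 or more in log2 CPM, and of these 14 only Lman1 had separate groups.

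Among genes lower in KO, Heg1 had the smallest p. It codes for a membrane glycoprotein known for junction stability in blood vessels. WT libraries held 4.49 and 6.12 CPM in males and 3.86 and 5.68 in females, and KO libraries held 3.03, 2.78, 2.10 and 2.31 in the same order. The groups were separate, and the log2 fold change was -0.99 (SE 0.18, adjusted p = 0.998, edgeR) with 8 libraries and -0.99 without the library labelled male KO replicate 2. DESeq2's adjusted p for Heg1 was 0.0322 with 8 libraries, and DESeq2 did not call Heg1 without that library.

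Fam83a, a gene of a family that acts in EGF receptor signalling, was at 1.46 and 2.91 CPM in male WT and 2.09 and 3.75 in female WT libraries. KO libraries held 0.447 and 0.827 CPM in males and 0.805 and 1.25 in females, so the groups did not overlap. Its log2 fold change was -1.63 (SE 0.33), and -1.76 without the doubted library. Wnk2, a kinase of the family that controls salt transport, was at 3.46 to 3.90 CPM in WT and 1.41 to 2.48 in KO libraries, a log2 fold change of -0.86 (SE 0.19).

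Another 3 of the 10 genes with the smallest p on the lower side code for regulators of transcription. Zfp462, a zinc finger gene, lay between 34.9 and 45.1 CPM in WT and between 31.3 and 32.3 in KO libraries (log2 fold change -0.30, SE 0.07), with no overlap. Tcf4, which codes for a basic helix-loop-helix factor, and Zbtb20, a zinc finger repressor, had log2 fold changes of -0.23 (SE 0.05) and -0.50 (SE 0.11), and for both the KO and WT ranges overlapped. The remaining genes of the 10 with the smallest p on the lower side were Sema3d (-0.42), Cep290 (-0.29) and Lrrc75b (-2.05), the last at 1.40 CPM or less in every library. None of the 10 was called by edgeR with 8 libraries.

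Capn11 had the smallest p among genes higher in KO. It codes for a calpain protease known mainly from testis. It had 0, 6, 1 and 4 counts in the WT libraries and 27, 19, 38 and 30 counts in the KO libraries, in the order male replicates, female replicates. All KO libraries were above all WT libraries, at 0.524 to 1.09 CPM against 0 to 0.205 CPM, a log2 fold change of 3.31 (SE 0.59, adjusted p = 0.998, edgeR, and 0.0322 by DESeq2). In the HDM arm the order was kept in males (0.0315 and 0.154 CPM in WT, 0.285 and 0.379 in KO) but not in females, where WT libraries held 2.00 and 3.93 CPM and KO libraries 0.847 and 0.430.

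Poli, the gene of the DNA repair polymerase iota, was at 13.5 and 12.9 CPM in male WT and 12.8 and 14.2 in female WT libraries. KO libraries held 15.9 and 16.6 CPM in males and 17.8 and 17.4 in females. The difference was small but the groups were separate (log2 fold change 0.34, SE 0.07, and 0.34 without the library labelled male KO replicate 2). The HDM libraries did not enter the p by which Poli was chosen, but they may share tracheas with the naive ones. In them Poli was at 11.5 to 14.1 CPM in the 4 WT and 14.7 to 17.2 CPM in the 4 KO libraries, again without overlap.

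Mpv17l2, which acts in assembly of mitochondrial ribosomes, and the transcription factor gene Foxq1 were higher by 0.25 (SE 0.05) and 0.21 (SE 0.05) on the log2 scale, with separate groups. The same held for Irf2bp2 (0.15), March9 (0.22) and Klf16 (0.20), all of which were well expressed. Pkib (0.98), 3830403N18Rik (2.10) and Alpk2 (2.72) were at low level, and Alpk2 had 12 counts or fewer in every library. Among genes that averaged 2 or more in log2 CPM and had separate groups, the largest differences on the higher side also included Ldlrad4 (0.41), Trnp1 (0.31) and Mapkapk5 (0.25). Of these, Ldlrad4 was above Poli and Mpv17l2 as well. On the lower side the largest also included Esyt3 (-0.67), Fam69a (-0.46), Gprin3 (-0.36) and Fmn1 (-0.33).

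Naive and HDM cultures of 1 replicate number may share tracheas, but no library serves in both. The 4 KO libraries with HDM kept Lman1 at 53.9% to 64.8% of the mean of the WT libraries. Repeats and reversals with HDM are therefore given by label, and not as effects of a full loss of Lman1. Of the 20 genes with the smallest p, 10 in each direction, 19 were also tested over all 16 libraries. The direction seen in naive MTECs was repeated in both the female and the male HDM libraries for 6 of the 19 (31.6%), against 24.6% of the 15483 genes with values, and was opposite in both for 4. KO and WT libraries with HDM were separate in each sex, in the naive direction, for 4 of the 19 (21.1%), against 10.2% of all genes. Those 4 were Lman1, Heg1, Poli and Zfp462. Lman1 is the targeted gene, so its repeat is set by the design, and it counts in both the 6 and the 4.

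Position on the chromosome was described because Lman1, Tcf4, Poli, Alpk2 and Ldlrad4 all lie on chromosome 18. Tcf4, Poli, Alpk2 and Ldlrad4 are themselves counted among the genes near Lman1 below. The shares near Lman1 are therefore in part set by the values that prompted the description. Within 20 Mb of Lman1, and without Lman1, 11 of 164 tested genes (6.71%) had an unadjusted p under 0.05, against 7 of 227 (3.08%) farther away on the chromosome and 3.1% of all genes. The groups did not overlap for 8 of the 164 (4.88%), against 4 of the 227 (1.76%) and 1.43% of all genes. Within 5 Mb, a window set after the values were seen, the numbers were 8 of 61 (13.1%) by p and 5 of 61 (8.2%) by overlap. With the replicate block, 20 of the 164 genes within 20 Mb (12.2%) had an unadjusted p under 0.05, against 14 of the 227 (6.17%) and 5.65% of all genes. Without the library labelled male KO replicate 2 the counts were 17 of 163 (10.4%) and 11 of 227 (4.85%), against 4.18% of all genes. By chromosome, the share of genes with separate groups was largest on chromosome 18 (3.32% of 392, Lman1 included) and next on chromosome 16 (2.74% of 474), and it was above 0.8% on each of the 19 autosomes.

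The 11 genes did not share a direction. Alpk2, 0.59 Mb from Lman1, Ldlrad4 at 1.91 Mb, Poli at 4.49 Mb and the pseudogene Rps2-ps10 at 4.72 Mb were higher in KO. Seh1l at 1.75 Mb (-0.17), Tcf4 at 3.32 Mb, Dynap at 4.22 Mb (-1.30), 4930503L19Rik at 4.43 Mb (-0.76), Fbn2 at 7.77 Mb (-1.96), Pias2 at 11.0 Mb (-0.17) and Sall3 at 14.9 Mb (-0.52) were lower, all on the log2 scale. Rps2-ps10, Seh1l, Dynap, 4930503L19Rik, Fbn2, Pias2 and Sall3 were named only because they lay in this window. The nearest tested genes on either side of Lman1, which were Malt1, Zfp532 and Sec11c on one and Ccbe1, Pmaip1 and Gnal on the other, had log2 fold changes between -0.24 and -0.04.

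**Figure D3:**
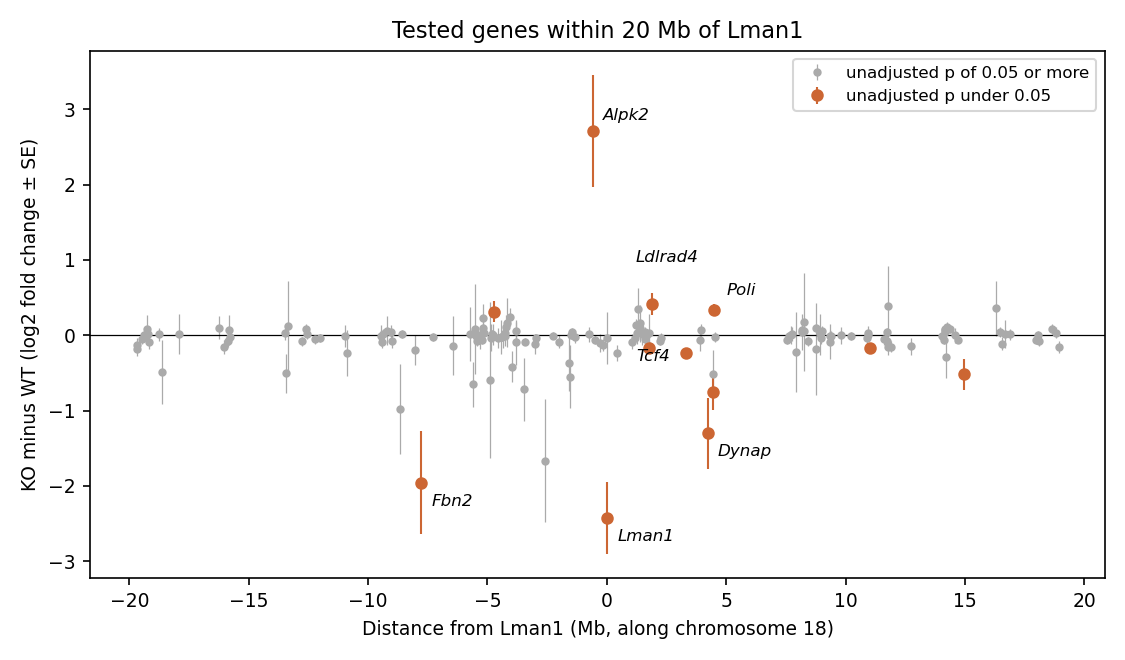
KO minus WT log2 fold change ± SE (vertical axis) of tested genes within 20 Mb of Lman1 on chromosome 18, by distance from Lman1 in Mb (horizontal axis), with genes at an unadjusted p under 0.05 in orange. Most genes lie near 0, including those next to Lman1, and genes in orange point both ways.

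Gene lists by pathway and cell type were then described. Their 634 different tested genes gave 20 at an unadjusted p under 0.05 (3.15%), 7 higher and 13 lower, and 7 without overlap (1.1%), 5 higher and 2 lower, which is near the 3.1% and 1.43% of all genes. With the replicate block 59 of the 634 (9.31%) had an unadjusted p under 0.05, 21 higher and 38 lower, against 5.65% of all genes. Without the library labelled male KO replicate 2 there were 41 (6.47%), 17 higher and 24 lower, against 4.18%. No member was called by edgeR with 8 libraries. The median log2 fold change lay between -0.15 and 0.15 for 27 of the 30 lists, beside 0.00 for all genes.

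Partners of LMAN1 in the early secretory pathway differed little. Mcfd2 was at 66.3 ± 3.98 CPM (SD, n = 4) in WT and 66.0 ± 5.02 CPM (SD, n = 4) in KO libraries, a log2 fold change of -0.01 (95% interval -0.16 to 0.14). The list of cargo receptors and proteins of the ER-Golgi intermediate compartment had a median of 0.03 over 22 tested members, and apart from Lman1 all 21 had an interval within -0.5 to 0.5. The closest were Tmed1 (0.14, SE 0.06) and Ergic2 (-0.10, SE 0.06). Lman2 and Lman2l, the nearest relatives of Lman1 by family, were at 0.05 (95% interval -0.06 to 0.15) and 0.00 (-0.19 to 0.19), and Surf4, another cargo receptor, was at 0.03 (-0.09 to 0.15), values looked up for their role and not by the rule. Lman1l had 6 counts at most and was not tested.

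Of 12 genes for proteins linked to LMAN1 as cargo, 6 were tested, with a median of -0.08. F5, which codes for clotting factor V, was at 8.92 and 14.9 CPM in male WT and 5.00 and 8.41 in female WT libraries, and at 7.81, 8.52, 3.57 and 3.72 CPM in the KO libraries in the same order. It was lower in KO than in WT of the same sex in every library, but the groups overlapped across sexes (log2 fold change -0.71, SE 0.21, adjusted p = 0.998, edgeR). Ctsc, for cathepsin C, was at -0.30 (SE 0.18), Lgals3bp at 0.07 (SE 0.09) and F8, for factor VIII, at 0.10 (SE 0.15) on the log2 scale. The 5 Serpina1 genes and Adipoq had 6 counts or fewer in every library.

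Genes of protein folding and the unfolded protein response also stayed close to WT. All 38 members were tested, their median was 0.01, and 37 had an interval within a 2-fold change and 34 within -0.5 to 0.5. Sesn2, a stress-induced regulator of growth, had the smallest p at 0.14 (SE 0.05), followed by Sdf2l1 (0.19, SE 0.10) and Edem2 (0.13, SE 0.07), which act in folding and in disposal of misfolded proteins. Among the standard reporters of ER stress, again looked up for their role, Hspa5 was at 0.03 (95% interval -0.16 to 0.21), Ddit3 at 0.13 (-0.19 to 0.45), Atf4 at 0.05 (-0.07 to 0.17) and Herpud1 at 0.10 (-0.05 to 0.24). The COPII and COPI coat list had a median of 0.00 over 39 members, with Cope (0.15, SE 0.05) and Arf5 (0.13, SE 0.05) highest by p. N-glycan synthesis and trimming had a median of 0.02 over 30 members, and Man2a1, a Golgi mannosidase, was at -0.19 (SE 0.06).

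The make-up of the cultures was read from marker lists. Basal cell markers had a median of -0.03 (18 tested), club cell markers 0.00 (13), goblet cell and mucin genes -0.04 (17), squamous genes 0.02 (16), rare epithelial cell markers 0.11 (17) and proliferation genes 0.01 (30). Ciliated cell markers had a median of 0.07 (29 tested), and their summed level followed the replicate number in males more than genotype. It was 313.6 CPM in WT and 330.3 in KO for male replicate 1, but 148.0 in WT and 147.6 in KO for male replicate 2. In females it was 210.3 and 277.8 in WT and 248.7 and 275.2 in KO. Left out one at a time, the male libraries moved this median from -0.35, without KO replicate 1, to 0.40, without WT replicate 1.

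Fibroblast markers had the second lowest median of all lists, -0.56, with 17 of 18 tested members lower in KO. Of these, 0 were called, 0 had separate groups and only 3 had an interval within a 2-fold change. Col1a1, the main fibrillar collagen gene, was at 0.666 and 63.4 CPM in male WT, 9.22 and 250.8 in female WT, 1.14 and 35.96 in male KO and 36.5 and 32.3 in female KO libraries. The groups overlapped widely, and female WT replicate 2 was far above the rest. The summed level of the list was 713.8 to 2226 CPM in WT and 642.3 to 1348 CPM in KO, and the median was 0.15 without female WT replicate 2, -0.10 without male WT replicate 2 and -0.34 without male KO replicate 1. It was -0.83 without either male or female WT replicate 1 and -0.76 without the library labelled male KO replicate 2. The part of fibroblasts or of the 3T3 coating in these levels was not tested. Markers of endothelium, smooth muscle and cartilage had a median of -0.98 over 7 tested members, of which 4 were lower and 3 higher in KO. They ranged from -1.34 for Cnn1 to 0.27 for Kdr. Among the lower members were the smooth muscle genes Acta2 (-1.25, SE 0.61), Tagln (-0.98, SE 0.49) and Myh11 (-1.27, SE 0.68). The median of this list was -0.54 without female WT replicate 2, -0.57 without male WT replicate 2 and -1.34 without the library labelled male KO replicate 2. Pecam1 and Cdh5, which define endothelium, were at 0.181 CPM or less in every library.

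Immune cell markers had a median of 0.07 over 11 tested members. Ptprc, which marks all leukocytes, was at 2.33 to 6.47 CPM, and the T cell gene Cd3e had 1 count at most in any library.

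Genes of the innate response to allergen were examined because the study exposed other cultures to HDM. Alarmins, cytokines and chemokines had a median of -0.03 over 24 tested members, with Ccl28 at 0.47 (SE 0.31) and Ccl2 at -1.11 (SE 0.68), and Tslp and Il25 were too low to be tested. Only 10 of the 24 had an interval within a 2-fold change, so differences of that size in this list were often not excluded. NF-kB feedback genes had a median of 0.01 over 19 members, of which 18 had an interval within a 2-fold change. Receptors for mite allergen and type 2 cytokines had a median of -0.02 over 21, including Crlf2, a chain of the TSLP receptor, at 0.17 (SE 0.09), and F2r, a thrombin receptor, at -0.10 (SE 0.05). Members ranged from -0.64 for Il17rb to 1.65 for Il1rl1, and 0 had an unadjusted p under 0.05 (edgeR). An interval within a 2-fold change was found for 17 of the 21.

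Interferon-stimulated genes had a median of -0.13 with 26 of 30 members lower, among them Ddx58, an RNA sensor, at -0.14 (SE 0.06). Their summed level was 411.1 to 635.7 CPM in WT and 439.5 to 573.1 CPM in KO, the medians were -0.26 in females and 0.01 in males, and without male WT replicate 2 the median was 0.00, while it was -0.29 without male WT replicate 1 and -0.26 without the library labelled male KO replicate 2. Antigen presentation genes had a median of 0.09, with 16 of 20 higher and H2-D1, a class I gene, separate between the groups (0.12, SE 0.06). Basement membrane and integrin genes had a median of -0.11, with 21 of 24 lower, led by Itgb8 (-0.51, SE 0.17), and the median was -0.01 without male WT replicate 1 and -0.03 without female WT replicate 2. Mitochondrially encoded genes had a median of -0.23 over 13 (-0.12 without male WT replicate 2), and their share of all counts was 0.608% to 1.52% in WT and 0.517% to 1.12% in KO libraries. By sex, this share was 1.03% to 1.52% in male and 0.517% to 0.675% in female libraries. The part of mitochondrial share in the other results was not tested.

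Of the remaining lists, medians were 0.08 for cytochrome P450 and conjugating enzymes, 0.00 for proteases and inhibitors, airway ion transport and sterol synthesis, 0.02 for clock genes, 0.07 for immediate early genes and for glycolysis, and 0.04 for p53 targets. Across all lists, members with small p included Timp3, an inhibitor of matrix proteases (-0.33, SE 0.09), Fmo1 (-0.80, SE 0.34) and the clock genes Clock (-0.20, SE 0.07) and Bhlhe41 (-0.60, SE 0.22). Slc9a3r1, which anchors ion channels at the apical membrane, was separate between the groups (0.13, SE 0.06).

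**Figure D4:**
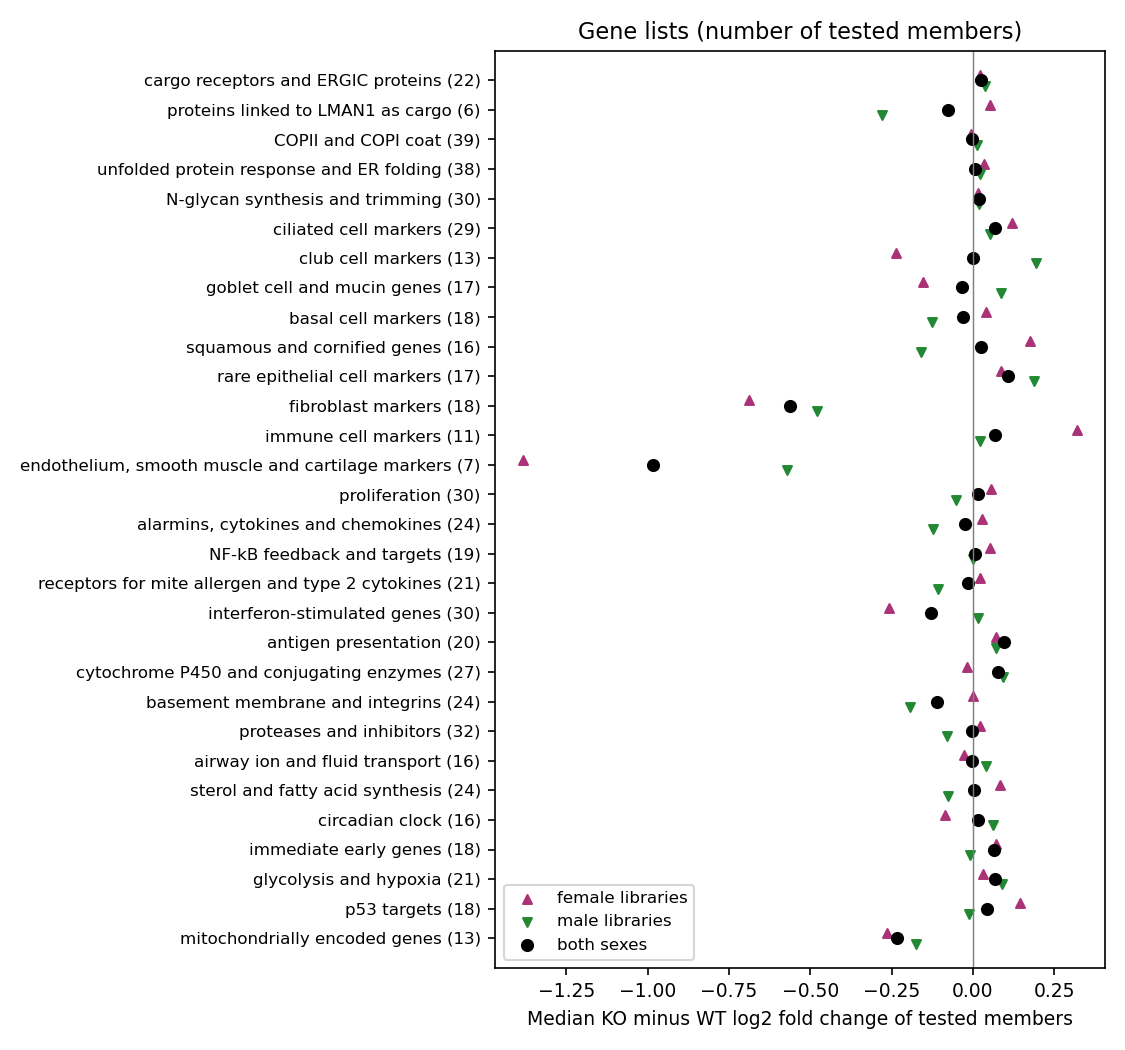
Median KO minus WT log2 fold change (horizontal axis) of the tested members of 30 gene lists, with the number tested in brackets, for both sexes together (black circles), female (triangles up) and male libraries (triangles down). Most lists sit near 0, and fibroblast markers (-0.56) and markers of endothelium, smooth muscle and cartilage (-0.98) lie lowest.

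The sexes were then taken apart. In females edgeR called 0 genes (0.0%), with 178 at an unadjusted p under 0.05, and in males 0 genes (0.0%), with 621. With the replicate block these were 456 and 1148, and without the library labelled male KO replicate 2 they were 232 and 801. DESeq2 also called 0 in each. With only the 4 female libraries, edgeR called 1 gene, Lman1. The interaction, which tests whether the KO minus WT difference itself differs between males and females, called 0 genes (0.0%), with 226 at an unadjusted p under 0.05, 590 with the replicate block and 348 without that library. Over 10711 autosomal genes that averaged 2 or more in log2 CPM, the female and male differences had the same sign for 55.4%, and their correlation across genes was 0.17, given as a description since genes are not replicates. Female and male medians differed in sign for 18 of the 30 lists.

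Gpnmb, a lysosomal glycoprotein gene, had the smallest p of the interaction among autosomal genes. It was at 94.1 and 85.5 CPM in female WT and 120.5 and 105.4 in female KO, but 51.4 and 60.6 in male WT and 31.2 and 38.5 in male KO libraries. Both replicates of each sex moved the same way, and the interaction was -1.01 on the log2 scale (SE 0.18, adjusted p = 1.00, edgeR), while DESeq2 called Gpnmb alone. Ctss, for the lysosomal protease cathepsin S, followed with 43.7 and 39.7 CPM in female WT, 55.7 and 51.1 in female KO, 25.9 and 29.2 in male WT and 19.3 and 21.8 in male KO libraries. Among the immune cell markers, Csf1r, a macrophage receptor gene, was at 0.33 in females and -0.41 in males on the log2 scale, and 3 of the 11 tested markers were positive in females and negative in males. The median of these markers was 0.32 in females and 0.02 in males, and their part in the values of Gpnmb and Ctss was not tested.

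Distances between libraries set genotype against replicate. They were Euclidean distances on log2 CPM with a pseudocount of 4 over the 2000 autosomal genes with the largest SD. In males, WT and KO libraries of the same replicate number were 30.0 and 35.7 apart, while WT and KO libraries of different numbers were 53.4 and 53.8 apart. The 2 male WT replicates were 56.3 apart and the 2 male KO replicates 54.2, so male libraries of 1 number were closer across genotype than replicates were within it. In females, KO and WT libraries were 33.6 to 36.9 apart, against 44.1 between the WT and 29.5 between the KO replicates. The mean KO to WT distance was thus 0.963 of the mean replicate distance in females and 0.783 in males.

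The first principal component held 36.65% of the variance and the second 28.48%. On the first, both male replicate 1 libraries lay at -30.1 (WT) and -27.2 (KO), and both male replicate 2 libraries at 20.4 and 13.7. The genes with the largest positive weights on it were fibroblast matrix genes such as Col1a2, Col1a1 and Col6a3, and those with negative weights included Ccl20 and the ciliary gene Hydin, named here from the weights and not by the rule.

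**Figure D5:**
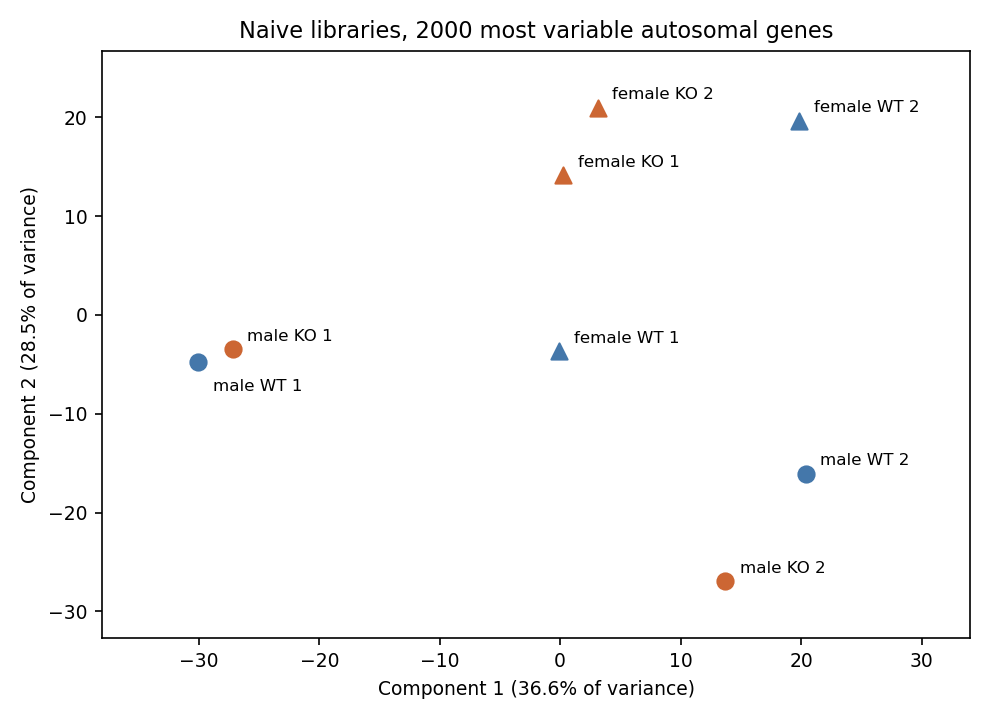
The 8 naive libraries on the first (horizontal axis) and second (vertical axis) principal components of the 2000 most variable autosomal genes, WT in blue and KO in orange, male libraries as circles and female as triangles. Male libraries pair by replicate number on the first component, and KO and WT libraries are not separated on either.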

How the data were processed

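RNA was sequenced from 16 MTEC cultures, of which the 8 naive libraries were used here, and all 16 only where stated. The authors deposited 1 table of raw counts, whole numbers without normalization, with an Ensembl identifier for each gene. The submitters' processing notes name Trimmomatic 0.36, STAR 2.5.2b, featureCounts of Subread 1.5.2, DESeq2 and GRCm38. Settings, strand and annotation release were not given in the sources used here, so overlapping and antisense genes cannot be told apart. Of 49315 identifiers, 49056 matched GENCODE M21, from which symbols and positions were taken.

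Genes were filtered with filterByExpr, scaled with TMM and fitted with edgeR 4.0.16 (R 4.3.3) with sex as covariate, called at an adjusted p under 0.05, two-sided. This quasi-likelihood test gave all adjusted p-values unless limma 3.58.1 (voom) or DESeq2 1.42.0 is named. Female, male and interaction contrasts came from the 4 group means. No test was run on lists, distances or positions. CPM are counts scaled by library total and TMM factor, compared only within a gene. The main fit was tested on simulated counts with the same dispersion for every gene and no sex effect, replicate pairing or outlying library. That test does not show how the fit performs with the spread of these libraries. Python 3.11.15, numpy 2.4.6, pandas 2.3.3 and matplotlib 3.10.9 were used.

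Replicates are labelled as biological, and what was shared between them beyond pooled tracheas was not given. Same-numbered WT and KO libraries deviated together (correlation of deviations from the group means over genes 0.511 in males and 0.151 in females), so the numbers were taken to pair the libraries. The values reported come from the fit without a replicate block unless the block is named. With the replicate block 0 genes were called, as without it, and the log2 fold change of Lman1 was -2.61 (adjusted p = 0.400, edgeR).

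The libraries, lists and named genes were chosen with earlier results of these data known. Named genes were Lman1, Mcfd2 and the 3 tested genes on each side of Lman1, 5 sex-linked genes, the 10 genes with the smallest p in each direction, up to 5 in each direction with separate groups and the largest fold change at a mean log2 CPM of at least 2, up to 3 of each list and 5 of the interaction with the smallest p, and defining cell type markers. Not every gene so chosen is named, and 1 is not reported here.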

Additional observations from a re-analysis of the deposited data

Results flagged for a closer look

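Values within the 4 KO and the 4 WT libraries were checked for a library far from the other 3, over 138 such groups of genes and lists, and 6 were found. Chance flags about 1 in 20 groups. In the KO libraries, Lman1 was apart in male KO replicate 2 (64.0 CPM, against 12.9 to 14.1), and so were Foxq1 (42.0 CPM) and the summed level of interferon-stimulated genes (573.1 CPM) in the same library. Col1a1 was apart in male KO replicate 1, where it was lowest (1.14 CPM). In the WT libraries, male WT replicate 1 was apart for Alpk2 (0.166 CPM, from 5 counts) and for the summed level of proteases and inhibitors (6519 CPM).

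For 3 genes the libraries lay in opposite directions in the sexes, in both replicates of each. The female and male log2 fold changes were 0.33 and -0.68 for Gpnmb, 0.36 and -0.42 for Ctss and 3.12 and -1.19 for Syce1, a meiosis gene that had 23 counts or fewer in every library. The interaction was not called for any of them by edgeR (adjusted p = 1.00 for each), and DESeq2 called it for Gpnmb.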

How the results depend on the processing

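The count of 0 genes called in KO minus WT held under upper-quartile scaling, library size only, at least 10 counts in every library, the replicate block, a robust prior, limma voom, all 16 libraries, no sex covariate and a size limit of 1 on the log2 fold change. DESeq2 called 4 genes, and 9 with male KO replicate 2 left out, a setting chosen after the data were seen. With no filter on low counts 27355 genes were tested and 141 were called, 17 higher and 124 lower. The SE of Lman1 in that fit was 0.08 at a log2 fold change of -2.43, against 0.48 at -2.43 in the main fit. The fit with no filter called 111 genes in females, 83 in males and 60 in the interaction. The cause of the added calls and of the smaller SE was not tested.

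Left out one at a time, the libraries gave 0 to 1 genes called in KO minus WT, 0 to 1 in females, 0 to 1 in males and 0 to 1 in the interaction. The gene was Lman1 in KO minus WT, in females and in males without male KO replicate 2, and in females without male KO replicate 1. It was Rn7sk in males and in the interaction without male WT replicate 1. With only the 4 female libraries, also chosen later, edgeR called 1 gene, Lman1. In the interaction over 8 libraries DESeq2 called 1, Gpnmb. Lman1 itself was called by DESeq2 (-2.47), with no filter (-2.43) and without male KO replicate 2, by edgeR and by DESeq2 (-3.21 in each). Leaving out 1 library moved its log2 fold change between -3.21 and -2.22. The replicate block changed no call, and raised the genes at an unadjusted p under 0.05 from 481 to 877.

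For the other 135 named genes, 2542 alternative values gave 36 calls, none opposite in direction to the value reported, and 36 changes of sign without a call. List medians moved by more than the spread between pairs in 34 of 589 values, for 10 lists, and changed sign in 81. The ratio of KO to WT distance over replicate distance ranged from 0.932 to 0.966 in females and from 0.733 to 0.823 in males. With 2 pools a group, leaving out 1 library at a time put the median on both sides of 0 for 17 of 30 lists.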

Other observations

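Female libraries held a few reads of Y-linked genes. Ddx3y had 28 and 30 counts in female WT and 14 and 9 in female KO libraries, and Eif2s3y had 20 and 34 counts in female WT and 9 and 5 in female KO libraries, against 1293 to 1480 counts of Eif2s3y in the male libraries. Both genes were at 1.03 CPM or less in every female library.

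In CPM scaled over all 16 libraries, Lman1 was at 65.0 and 66.0 in the male KO and 66.6 and 78.1 in the female KO libraries with HDM, so 5 of the 8 libraries labelled KO lay above 50% of the mean of the 8 WT libraries and 3 lay below 12%.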
